A study of Homo sapiens with 6 samples.

Results

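The genes described here encode histone methyltransferases, histone demethylases and histone deacetylases, the enzymes that write and erase methyl groups on histones and that erase acetyl groups. They were chosen by symbol among the protein-coding genes of the count table, as the KDM, KMT2, SETD, SETDB, HDAC, SIRT, EZH, EHMT, SUV39H and WHSC1 families with DOT1L and NSD1, leaving out a pair of KDM genes that are not reported here. The rule gave 61 genes, and all 61 passed edgeR's filter on low counts, which kept 15615 of the 29476 genes of the table, 13164 of them protein-coding. They comprise 27 methyltransferases and SET domain genes, 16 demethylases and 18 deacetylases.

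Poly(A) RNA was sequenced from A549 cells, an established human lung adenocarcinoma line, after transfection with 1 nontargeting siRNA (siCtrl) or with 1 siRNA against DDX17 (siDDX17), a DEAD-box RNA helicase. There were 3 libraries in each group, and both groups received siRNA with the same lipid reagent. A harvest 48 h after transfection is given for quantitative PCR (RT-qPCR). Whether the sequenced RNA was taken at that time is not stated in the sources used here. With 1 siRNA sequence against the target and 1 cell line, an effect of losing DDX17 cannot be told apart from another effect of that sequence. The titles name siRNAs whereas another label of the control samples names a plasmid, and the titles were followed.

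Methylation of histone H3 at lysine 4 (H3K4) is typical of active promoters and enhancers, methylation at H3K9 and H3K27 of silenced chromatin, and methylation at H3K36 and H3K79 of transcribed gene bodies. Each site has its own methyltransferases, most of them with a catalytic SET domain, and its own demethylases, which are either flavin-dependent amine oxidases or JmjC oxygenases. Acetyl groups are removed by the zinc-dependent HDACs, which fall into classes I, IIa, IIb and IV, and by the NAD-dependent sirtuins, some of which work in the cytoplasm or in mitochondria.

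The libraries held between 30658136 and 39182371 counts, and the median count over the 61 enzymes was between 528 and 727 per library. DDX17 had 177, 184 and 206 CPM (counts relative to the TMM-scaled library size) in siCtrl and 32.1, 30.8 and 30.4 CPM in siDDX17, so that it fell by 83.5%. Keratins 8 and 18 were abundant and the epithelial gene CDH1 was present, whereas EPCAM had between 25 and 88 counts. The leukocyte gene PTPRC, the endothelial genes PECAM1 and CDH5 and the fibroblast genes DCN, LUM and PDGFRB had at most 12 counts in any library, although CD14 had between 702 and 1110. Each library was also set against the mean of the other libraries of its group. Over the 61 enzymes, siCtrl 1 lay farthest (median absolute log2 deviation 0.15, against between 0.06 and 0.10 in the other 5 libraries). The same held over all tested genes (0.16, against between 0.08 and 0.12).

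After DDX17 knockdown the 61 enzymes moved in both directions. KDM2B, SETD7, HDAC1 and SIRT5 showed the largest rises past the test, and KDM4D, SIRT4, KDM7A, SUV39H1, KDM4A, EZH2 and SIRT6 the largest falls. In edgeR's quasi-likelihood test, at a p under 0.05 after Benjamini-Hochberg adjustment over all tested genes, 14 enzymes (23%) rose, beside 24.5% of all tested genes, and 20 (32.8%) fell, beside 24.3% of all tested genes. The other 27 did not pass the test. The median log2 fold change was 0.02 over the enzymes and 0.01 over all tested genes, and the enzymes ranged from -1.71 to 1.53. These are levels in bulk RNA, in which fewer cells of a kind and less RNA per cell cannot be told apart.

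Most of the changes were small. With a fold change over 1.5 as well, 4 enzymes (6.56%) rose, beside 11.9% of all tested genes, and 7 (11.5%) fell, beside 8.55% of all tested genes. With a log2 fold change over 1, SETD7 and KDM2B rose (3.28%, beside 4.65% of all tested genes) and KDM4D fell (1.64%, beside 2.92%). Every siDDX17 library lay above every siCtrl library for 17 enzymes (27.9%, beside 28.8% of all tested genes), and below for 21 (34.4%, beside 27.7%).

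The balance of rises and falls depended on the scaling. Of the enzymes that passed the test, 41.2% were higher after TMM scaling, but 62.2% when counts were scaled by library size alone and 61.8% in limma on log2(FPKM + 1). Over all tested genes the same share went from 50.1% to 67.7% with library size alone, which moved the all-gene median on the log2 scale by 0.12. Under library size alone, 9 more enzymes were called higher (SETD1A, SETD6, SETD9, KDM4C, KDM5B, HDAC2, HDAC3, HDAC5 and HDAC7) and 6 were no longer called lower (KMT2D, EHMT2, NSD1, SETD5, HDAC11 and SIRT1). Of the 34 enzymes called with TMM scaling, 23 were called in all alternative fits that held them, 11 of them higher and 12 lower, and 0 changed sign. The share of all tested genes that kept their call in every fit was not computed.

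**Figure D1:**
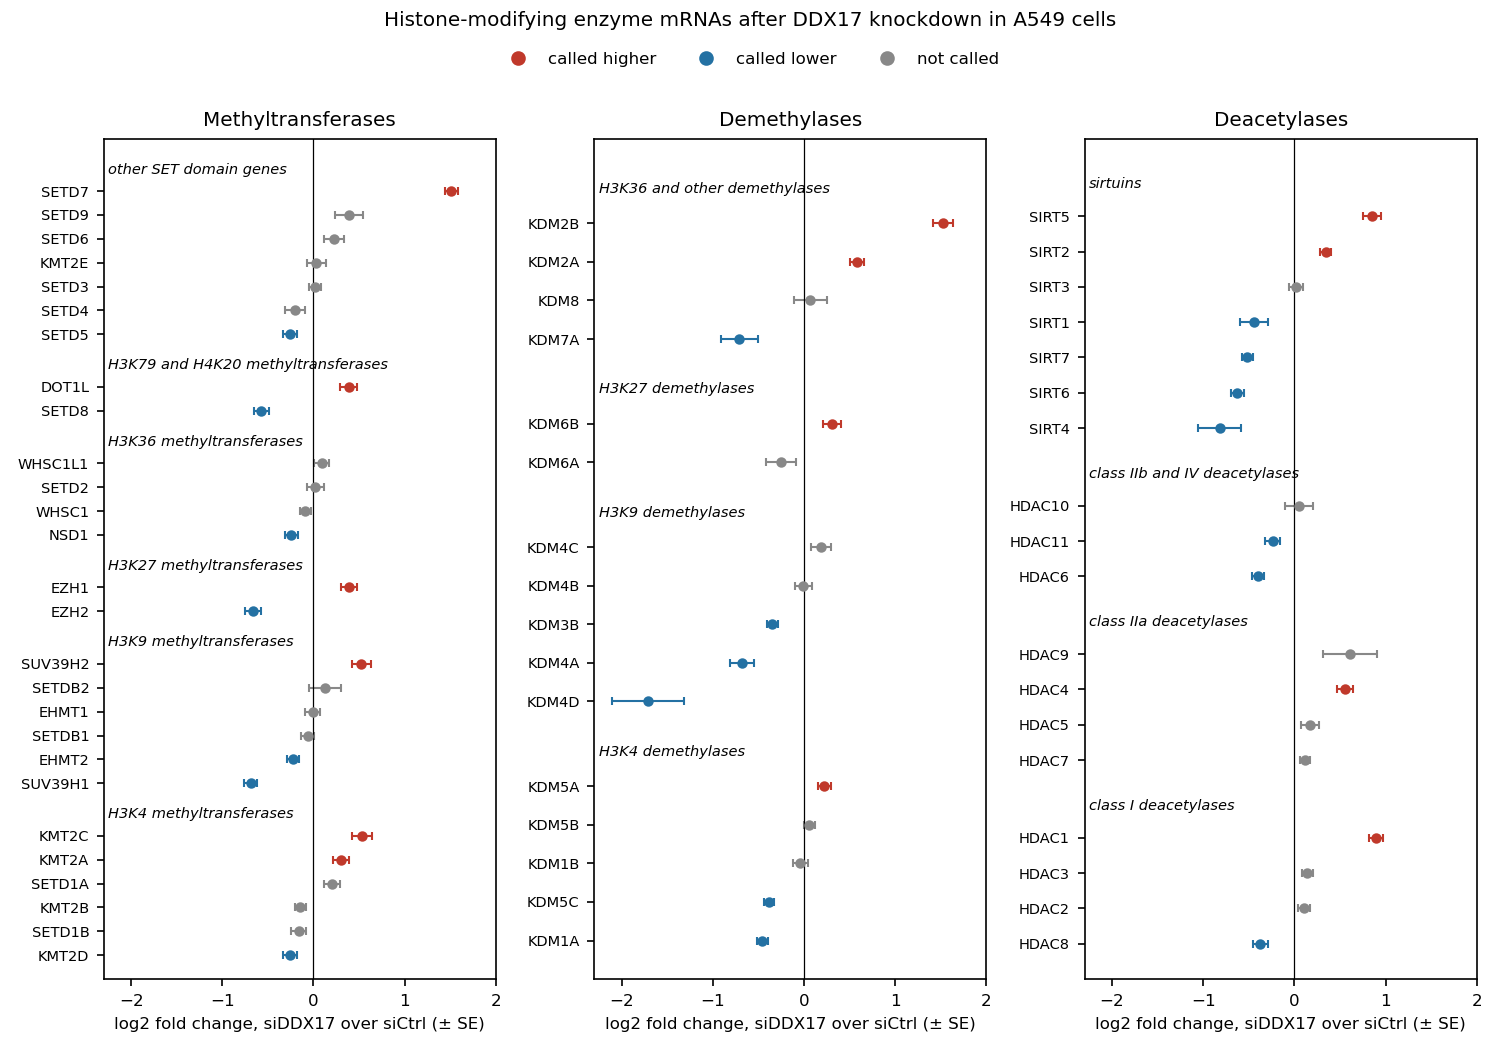
The log2 fold change of each of the 61 enzymes (x axis, siDDX17 over siCtrl, bars show the SE), grouped by substrate or class in 3 panels, with red for called higher, blue for called lower and grey for not called at an adjusted p under 0.05. Rises and falls stand side by side in most groups, with KDM2B (1.53), SETD7 (1.51) and KDM4D (-1.71) farthest from 0.

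Among the 6 H3K4 methyltransferases of the KMT2 and SETD1 families, KMT2A and KMT2C rose and KMT2D fell. KMT2C, which with KMT2D marks enhancers with monomethylated H3K4, had 9.72, 6.99 and 8.97 CPM in siCtrl and 12.6, 12 and 12.7 CPM in siDDX17, a log2 fold change of 0.54 ± 0.11 (SE; edgeR adjusted p = 0.0013). KMT2D had 32.6, 29.1 and 28.2 CPM in siCtrl and 25.4, 24.7 and 25.2 CPM in siDDX17, a log2 fold change of -0.26. The groups did not overlap for either gene, but the fall of KMT2D did not pass with library size alone (log2 fold change -0.14, edgeR adjusted p = 0.182) or in limma on FPKM.

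KMT2A, the founding member of the family and a frequent fusion partner in leukaemia, rose by 23.3%, from a mean of 13 to 16 CPM. Its log2 fold change of 0.30 did not pass the test without the library siCtrl 2 (0.23, edgeR adjusted p = 0.0578), and 18.3% of its exonic bases are shared with another gene on its strand. Its paralog KMT2B, the H3K4 methyltransferase with the highest FPKM (4.53 in siCtrl), had a log2 fold change of -0.14 (95% confidence interval -0.27 to -0.01), which did not pass after adjustment (edgeR adjusted p = 0.0631) but did without siCtrl 1 (-0.15, edgeR adjusted p = 0.0379) or siCtrl 2 (-0.19, edgeR adjusted p = 0.0462). SETD1A (0.20) and SETD1B (-0.16), which place the trimethyl mark at promoters, did not pass either, although SETD1A did without siCtrl 2 (0.26, edgeR adjusted p = 0.0363) or siDDX17 3 (0.27, edgeR adjusted p = 0.0392).

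The H3K9 methyltransferases of the SUV39H pair moved apart. SUV39H1, which trimethylates H3K9 in heterochromatin (X chromosome, positions 48695554 to 48709016, GRCh38), had 31.7, 34.1 and 31.0 CPM in siCtrl and 21.2, 19.6 and 19.1 CPM in siDDX17. All 3 siDDX17 libraries lay below all 3 siCtrl libraries, and the gene fell by 37.9%, a log2 fold change of -0.69 ± 0.07 (SE; edgeR adjusted p = 4.55e-06). Of its exonic bases, 21.2% are shared with a gene on the opposite strand. SUV39H2, its paralog on chromosome 10, had 5.70, 6.29 and 6.51 CPM in siCtrl and 9.70, 8.61 and 8.31 CPM in siDDX17, a rise of 43.8%.

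EHMT2 (G9a), which mono- and dimethylates H3K9 in euchromatin and had the highest FPKM of this group (11.3 in siCtrl), fell by 14.6%. The fall did not pass with library size alone (log2 fold change -0.11, edgeR adjusted p = 0.17), in limma on FPKM or without the library siDDX17 3 (-0.19, edgeR adjusted p = 0.0696). Its partner EHMT1 had a log2 fold change of -0.01 (95% confidence interval -0.18 to 0.17). The other members of the group, SETDB1 (-0.06) and SETDB2 (0.12), which trimethylate H3K9, did not pass the test, and 12.9% of the exonic bases of SETDB1 are shared with a gene on the opposite strand.

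Both H3K27 methyltransferases, the catalytic subunits of Polycomb repressive complex 2 (PRC2), passed the test in opposite directions. EZH2, the more active subunit and the more common one in dividing cells, had 17.4, 15.2 and 15.2 CPM in siCtrl and 10.6, 9.87 and 9.81 CPM in siDDX17. EZH1, the less active subunit, more common in resting cells, had 11.7, 11.5 and 9.93 CPM in siCtrl and 14.6, 14.0 and 14.6 CPM in siDDX17. The groups did not overlap for either. EZH2 fell by 36.8%, a log2 fold change of -0.66 ± 0.09 (SE; edgeR adjusted p = 3.17e-05), and EZH1 rose by 30.8%, a log2 fold change of 0.39 ± 0.09 (SE; edgeR adjusted p = 0.00232). Both passed in every alternative fit. Their promoters are shown because both enzymes serve the same site and their mRNAs moved apart. The sequences cover 250 bases before to 50 after the start of each gene in RefSeq (GRCh38.p14), both on the minus strand, EZH1 at chr17:42744991-42745290 and EZH2 at chr7:148884242-148884541, with capitals for matches to the motifs named after them.
EZH1: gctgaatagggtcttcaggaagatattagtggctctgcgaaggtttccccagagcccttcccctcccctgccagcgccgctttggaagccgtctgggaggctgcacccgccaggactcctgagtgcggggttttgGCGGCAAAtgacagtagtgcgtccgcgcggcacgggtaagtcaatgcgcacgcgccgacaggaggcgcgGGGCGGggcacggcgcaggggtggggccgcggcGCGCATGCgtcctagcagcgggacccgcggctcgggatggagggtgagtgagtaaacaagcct
EZH2: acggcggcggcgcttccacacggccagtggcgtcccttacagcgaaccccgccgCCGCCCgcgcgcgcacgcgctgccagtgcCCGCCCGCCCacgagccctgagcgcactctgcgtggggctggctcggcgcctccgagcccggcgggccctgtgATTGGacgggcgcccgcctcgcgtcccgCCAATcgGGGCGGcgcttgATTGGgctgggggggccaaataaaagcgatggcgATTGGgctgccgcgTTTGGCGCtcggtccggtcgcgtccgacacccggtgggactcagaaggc

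The motifs searched on both strands were TTTNNCGC (E2F), CCAAT (NF-Y), GGGCGG (GC box), TGACGTCA (CRE), GCATGCGC (NRF1) and CCGGAAG (ETS). The EZH2 window held 4 NF-Y matches, 4 GC boxes, of which 2 overlap each other, and 1 E2F match, whereas the EZH1 window held 1 E2F match, 1 GC box and 1 NRF1 match. A match is a run of letters and not a measured binding site. Of the 61 enzymes, 56 had a promoter in the table, all but SETD1B, WHSC1L1, DOT1L, HDAC5 and SIRT7. The E2F letters were in 10.7% of these promoters, in 10.5% of the 10569 promoters of tested coding genes and in 6.9% of all 27305 promoters. The NF-Y letters were in 33.9%, 36.5% and 35.7%, and the GC box in 73.2%, 70.2% and 44.6% of the same sets. The CRE was in 3.57%, 3.26% and 1.98%, the NRF1 letters in 7.14%, 5.49% and 3.27%, and the ETS letters in 17.9%, 19.0% and 10.7%. The shares in the enzymes thus lay near those in tested coding genes. For E2F, CRE and NRF1 they rest on 6, 2 and 4 of the 56 promoters, too few for a close comparison.

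NSD1, which dimethylates H3K36, was the only one of the 4 H3K36 methyltransferases to pass the test. It fell by 15.4%, but not past the test with library size alone (log2 fold change -0.12, edgeR adjusted p = 0.194), in limma on FPKM or without the library siDDX17 2 (-0.20, edgeR adjusted p = 0.0533). SETD2, which trimethylates H3K36, had a log2 fold change of 0.02 (95% confidence interval -0.18 to 0.22). The NSD paralogs WHSC1 (NSD2; -0.09) and WHSC1L1 (NSD3; 0.09) did not pass, and the sign of WHSC1 turned to 0.03 with library size alone.

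DOT1L, which methylates H3K79 and has no SET domain, had 10.7, 12.6 and 13.6 CPM in siCtrl and 16.5, 15.2 and 16.4 CPM in siDDX17, a rise of 30.5%. Of its exonic bases, 11.3% are shared with a gene on the opposite strand. SETD8 (KMT5A), which places the monomethyl mark on histone H4 lysine 20 in dividing cells, had 47.0, 42.8 and 38.1 CPM in siCtrl and 29.0, 27.2 and 29.9 CPM in siDDX17. It fell by 32.7%, a log2 fold change of -0.57 ± 0.08 (SE; edgeR adjusted p = 5.61e-05).

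SETD7, which monomethylates H3K4 and many proteins that are not histones (chromosome 4, positions 139495941 to 139606699, GRCh38), showed the largest rise of the methyltransferases. It had 20.3, 17.8 and 19.2 CPM in siCtrl and 55.0, 51.7 and 56.7 CPM in siDDX17. All 3 siDDX17 libraries thus lay far above the siCtrl libraries, and the log2 fold change was 1.51 ± 0.07 (SE; edgeR adjusted p = 3.44e-09), a 2.85-fold rise. SETD5 fell by 16.3%, which did not pass with library size alone (log2 fold change -0.14, edgeR adjusted p = 0.231), in limma on FPKM or without the library siDDX17 1 (-0.25, edgeR adjusted p = 0.0541) or siDDX17 2 (-0.23, edgeR adjusted p = 0.0676). The actin histidine methyltransferase SETD3 (0.02), SETD4 (-0.20), SETD6 (0.22), SETD9 (0.39) and KMT2E (0.03) did not pass the test. SETD9 passed without siCtrl 1 (0.46, edgeR adjusted p = 0.0239) or siDDX17 2 (0.46, edgeR adjusted p = 0.0475). SETD6 shares 11.3% of its exonic bases with a gene on its strand and 17.5% with one on the other.

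Of the 5 H3K4 demethylases, KDM1A and KDM5C fell and KDM5A rose. KDM1A (LSD1), the flavin-dependent demethylase of the CoREST complex, had the highest FPKM of the 61 enzymes in siCtrl (27.4 ± 1.1, SD, n = 3). It had 91.2, 91.1 and 96.3 CPM in siCtrl and 71.8, 66.1 and 64.9 CPM in siDDX17. The groups did not overlap, and KDM1A fell by 27.2%, a log2 fold change of -0.46 ± 0.06 (SE; edgeR adjusted p = 3e-05).

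KDM5C, an X-linked eraser of H3K4 trimethylation, had a mean of 66.9 ± 2.0 CPM in the control group, against 51.3 ± 0.85 CPM after knockdown (SD, n = 3), a fall of 23.2%. Its paralog KDM5A rose by 16.9%, a log2 fold change of 0.23 that did not pass without the library siCtrl 2 (0.17, edgeR adjusted p = 0.114), siDDX17 1 (0.21, edgeR adjusted p = 0.0766) or siDDX17 3 (0.21, edgeR adjusted p = 0.0785). KDM5B (0.06) and KDM1B (-0.04), the paralog of KDM1A, did not pass the test.

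In the group of 5 H3K9 demethylases, 3 fell and 0 rose, where 24.3% of all tested genes fell and 24.5% rose. The 3 falls passed in every alternative fit that held them, including each scaling. KDM3B, which removes mono- and dimethyl marks and had the highest FPKM of the group after KDM4A in siCtrl, had 42.2, 41.4 and 42.1 CPM in siCtrl and 33.6, 33.0 and 32.3 CPM in siDDX17, a fall of 21.4%. KDM4A, which removes trimethyl marks from H3K9 and H3K36, had 35.4, 26.3 and 22.8 CPM in siCtrl and 18.4, 17.4 and 17 CPM in siDDX17. The library siCtrl 1 was the highest, and without it the log2 fold change of KDM4A went from -0.68 to -0.49 (edgeR adjusted p = 1.96e-06). Of the exonic bases of KDM4A, 40.2% are shared with another gene on the same strand, whose reads the counts may divide in a way not given in the sources used here.

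KDM4D, a KDM4 paralog that lacks the reader domains of KDM4A, had the largest fall of the 61 enzymes on the fewest reads. It had 22, 19 and 29 counts in siCtrl and 7, 3 and 14 counts in siDDX17, or between 0.65 and 0.77 CPM and between 0.08 and 0.36 CPM. The groups did not overlap, and the log2 fold change was -1.71 ± 0.40 (SE; edgeR adjusted p = 0.00303). It was -2.36 without siDDX17 3 and -1.35 without siDDX17 2, both past the test. KDM4B (-0.01, 95% confidence interval -0.21 to 0.20) and KDM4C (0.19, 95% confidence interval -0.05 to 0.42) did not pass the test, although KDM4C did without siCtrl 1 (0.29, edgeR adjusted p = 0.0154).

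KDM6B (JMJD3), the inducible demethylase of H3K27, had 24.5, 18.7 and 19.4 CPM in siCtrl and 25.1, 24.6 and 28.0 CPM in siDDX17. The groups did not overlap, but siCtrl 1 was almost level with siDDX17 2, and the log2 fold change of 0.31 (edgeR adjusted p = 0.0193) did not pass without siCtrl 2 (0.23, edgeR adjusted p = 0.094), siCtrl 3 (0.26, edgeR adjusted p = 0.0617) or siDDX17 3 (0.25, edgeR adjusted p = 0.101). Its X-linked paralog KDM6A had a log2 fold change of -0.25 (95% confidence interval -0.61 to 0.11), which turned to 0.02 without the library siCtrl 1 and passed as a fall without siCtrl 3 (-0.43, edgeR adjusted p = 0.0216).

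The KDM2 genes, which encode H3K36 demethylases with a zinc finger that binds unmethylated CpG islands, both rose, and both passed in every alternative fit. KDM2B, which recruits a variant Polycomb repressive complex 1 to CpG islands (chromosome 12, positions 121429096 to 121581023, GRCh38), had 5.4, 7.59 and 6.81 CPM in siCtrl and 19.5, 18.6 and 18.8 CPM in siDDX17. Its siDDX17 libraries all lay far above the siCtrl libraries, and the log2 fold change was 1.53 ± 0.11 (SE; edgeR adjusted p = 1.29e-07), the largest rise of the 61 enzymes. KDM2A had 23.5, 24.6 and 27.8 CPM in siCtrl and 38.9, 38.9 and 36 CPM in siDDX17, a rise of 49.8%.

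KDM7A, a demethylase of H3K9 and H3K27, was grouped with the other demethylases and not counted among the H3K9 demethylases above. It had 5.26, 3.36 and 3.39 CPM in siCtrl and 2.98, 1.97 and 2.39 CPM in siDDX17. Its groups did not overlap, but siCtrl 1 stood above the other 2 siCtrl libraries, and the log2 fold change went from -0.71 to -0.47 without it (edgeR adjusted p = 0.019). The fall did not pass in limma on log2(FPKM + 1) (-0.14, limma adjusted p = 0.0958) or without the library siDDX17 2 (-0.58, edgeR adjusted p = 0.0648). KDM8, a JmjC protein whose histone activity is disputed, had a log2 fold change of 0.07 (95% confidence interval -0.31 to 0.45), and 14.5% of its exonic bases are shared with a gene on the opposite strand.

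**Figure D2:**
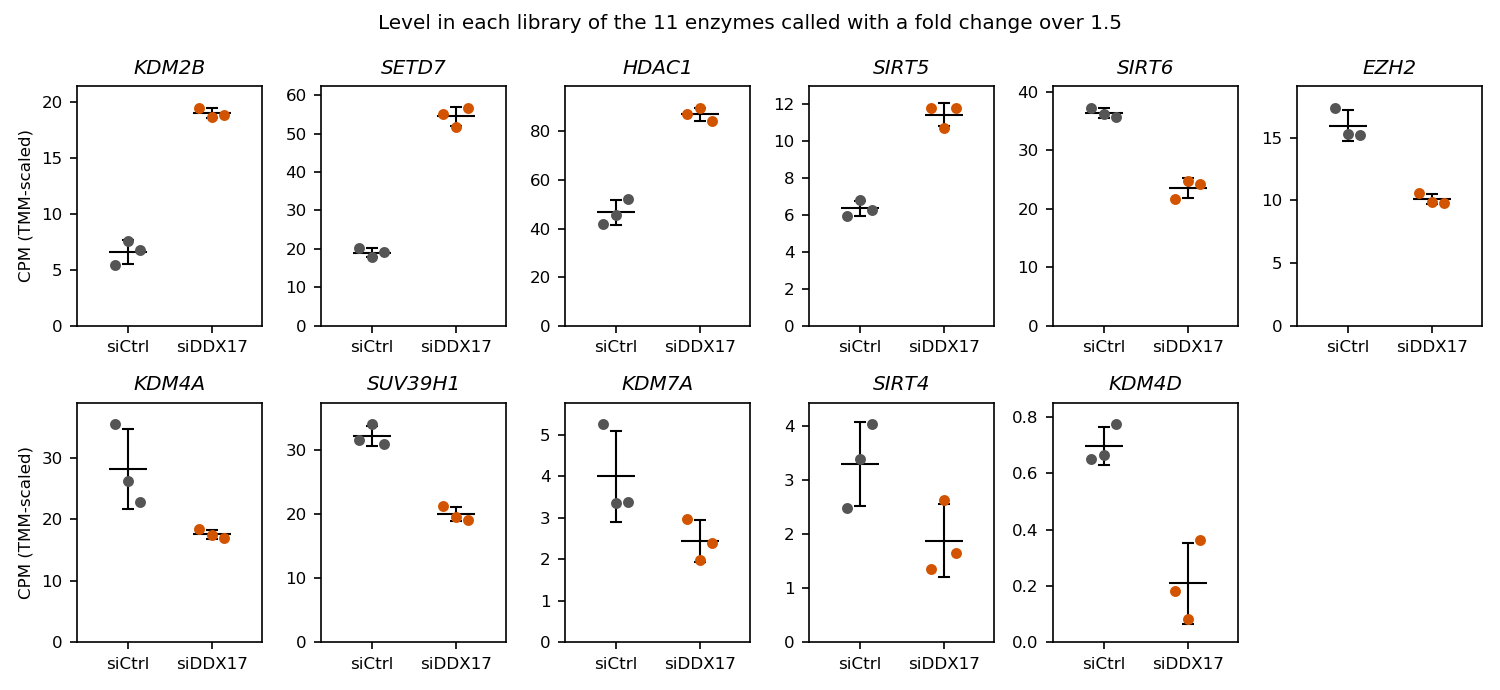
CPM (y axis, TMM-scaled, each panel starting at 0) in the 3 siCtrl and 3 siDDX17 libraries for the 11 enzymes called with a fold change over 1.5, where points are libraries, horizontal marks are means and bars are the SD. KDM2B, SETD7, HDAC1 and SIRT5 lie wholly higher in siDDX17, 6 of the 7 enzymes that fell lie wholly lower, and SIRT4 overlaps. The 11 enzymes were chosen by test and fold change in these same libraries, so this separation is not an independent result. Of all tested genes, 28.8% lay wholly higher and 27.7% wholly lower.

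Of the class I deacetylases, the nuclear HDACs of the Sin3, NuRD, CoREST and NCoR complexes, HDAC1 rose and HDAC8 fell. HDAC1 (chromosome 1, positions 32292083 to 32333635, GRCh38) had 42.0, 45.7 and 52.1 CPM in siCtrl and 86.9, 89.6 and 84.0 CPM in siDDX17. The groups lay far apart, and the log2 fold change was 0.90 ± 0.07 (SE; edgeR adjusted p = 5.01e-07), a 1.86-fold rise. Its close paralog HDAC2 had a log2 fold change of 0.11 (95% confidence interval -0.03 to 0.24), and HDAC3, the deacetylase of NCoR, 0.14 (0.01 to 0.27, edgeR adjusted p = 0.0658). HDAC8, which deacetylates cohesin and is not part of these complexes, had 21.7, 26.2 and 24.4 CPM in siCtrl and 19.8, 17.9 and 18 CPM in siDDX17, a fall of 22.9%.

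The 4 class IIa deacetylases shuttle between nucleus and cytoplasm and repress MEF2 factors. They had 1 rise and 0 falls, where 24.5% of all tested genes rose and 24.3% fell. HDAC4 had 11.7, 9.96 and 12.1 CPM in siCtrl and 16.6, 16.5 and 16.8 CPM in siDDX17, a rise of 47%. HDAC5 (0.17) and HDAC7 (0.12) did not pass with TMM scaling but did with library size alone (log2 fold changes 0.30 and 0.24, edgeR adjusted p = 0.0283 and 0.00568), and 24.0% of the exonic bases of HDAC5 and 11.2% of those of HDAC7 are shared with a gene on the opposite strand. HDAC9 was the enzyme with the lowest FPKM (0.04 in siCtrl), with between 14 and 39 counts per library, and its log2 fold change of 0.61 had a 95% confidence interval of -0.02 to 1.25, while without siCtrl 1 it was 0.93 and passed (edgeR adjusted p = 0.0235). HDAC5 passed without siCtrl 3 (0.28, edgeR adjusted p = 0.0299).

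HDAC6, the cytoplasmic tubulin deacetylase of class IIb, had 23.1, 23.8 and 22.7 CPM in siCtrl and 18, 17.4 and 17.4 CPM in siDDX17. It fell by 24%, a log2 fold change of -0.40 ± 0.07 (SE; edgeR adjusted p = 0.000348). HDAC11, the sole class IV enzyme, fell by 15.3% (edgeR adjusted p = 0.0294), a call that passed in only 5 of 15 alternative fits and was lost without siCtrl 3 (edgeR adjusted p = 0.0757), siDDX17 1 (0.0727), siDDX17 2 (0.0603) or siDDX17 3 (0.0909). HDAC10, a polyamine deacetylase, had a log2 fold change of 0.05, and 55.8% of its exonic bases are shared with another gene on its strand, so its counts are uncertain.

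Of the 7 sirtuins, 4 fell, 2 rose and SIRT3 did not pass the test, beside 24.3% lower and 24.5% higher among all tested genes. The 6 kept their signs under each scaling, although the fall of SIRT1 did not pass with library size alone. SIRT6, a nuclear deacetylase of H3K9 and H3K56, had 37.2, 36.1 and 35.7 CPM in siCtrl and 21.6, 24.7 and 24.3 CPM in siDDX17. SIRT7, the nucleolar sirtuin and the one with the highest FPKM (22.0 in siCtrl), had 42.2, 43.3 and 40 CPM in siCtrl and 29.9, 29.9 and 28.0 CPM in siDDX17. Neither gene's groups overlapped, and they fell by 35.3% and by 30% (log2 fold changes -0.63 and -0.51, edgeR adjusted p = 8.25e-06 and 2.12e-05).

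The falls of SIRT1 and SIRT4 rested on overlapping groups. SIRT1, the nuclear sirtuin that deacetylates p53 and histones, had 19.6, 13.5 and 11.6 CPM in siCtrl and 11.7, 9.98 and 11.1 CPM in siDDX17. Without siCtrl 1 its log2 fold change went from -0.44 (edgeR adjusted p = 0.0297) to -0.20 (edgeR adjusted p = 0.0832), and it did not pass without siDDX17 2 (-0.38, edgeR adjusted p = 0.133) or siDDX17 3 (-0.45, edgeR adjusted p = 0.0724). The mitochondrial SIRT4 had 2.48, 3.39 and 4.03 CPM in siCtrl and 1.35, 2.63 and 1.66 CPM in siDDX17. Its log2 fold change of -0.82 did not pass without siDDX17 1 (-0.63, edgeR adjusted p = 0.0591) or siDDX17 3 (-0.74, edgeR adjusted p = 0.0544).

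The sirtuins that rose were SIRT5 and SIRT2. SIRT5, the mitochondrial enzyme that removes succinyl and malonyl groups (chromosome 6, positions 13574227 to 13615158, GRCh38), had 5.97, 6.82 and 6.30 CPM in siCtrl and 11.8, 10.7 and 11.8 CPM in siDDX17. Its groups did not overlap, and it rose 1.80-fold, a log2 fold change of 0.85 ± 0.10 (SE; edgeR adjusted p = 8.54e-06). SIRT2, the mainly cytoplasmic deacetylase of tubulin and H4K16, had 32.9, 34.4 and 34.5 CPM in siCtrl and 42.8, 44.1 and 41.9 CPM in siDDX17, a rise of 26.8%. The mitochondrial SIRT3 had a log2 fold change of 0.02 (95% confidence interval -0.15 to 0.19).

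Because several of the enzymes come as pairs that act on the same residue, the share of each gene in the summed FPKM of its pair was computed in every library. FPKM counts reads per length, and a share within a library does not depend on how libraries were scaled. The gene lengths used are not given in the sources used here, so which gene of a pair leads is uncertain. In siCtrl, for example, HDAC2 had a higher mean CPM than HDAC1 (62.0 against 46.6) but a lower FPKM (5.59 against 20.1). The direction in which a share moved does not depend on these lengths. Of 13 pairs, 3 had 1 gene called higher and the other lower (KMT2C with KMT2D, SUV39H1 with SUV39H2, EZH1 with EZH2), KDM2A and KDM2B both rose, 6 pairs had 1 gene called and 3 had none. Among all tested genes, 24.5% were called higher and 24.3% lower. How often other gene pairs were called in opposite directions, or had shares that did not overlap, was not computed. The FPKM shares were not tested, since they come from the same counts as the fold changes.

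EZH1 took 30.7%, 33.3% and 30.1% of the summed EZH1 and EZH2 FPKM in siCtrl and 47.7%, 48.4% and 49.5% in siDDX17. By FPKM, the pair was thus about even in siDDX17, whereas EZH2 led in siCtrl. SUV39H1 took 84.3% ± 1.1 of its pair in siCtrl and 69.8% ± 0.55 in siDDX17, and KMT2C took 24.7% ± 2.8 and 36.4% ± 0.65 of its pair (SD, n = 3). KDM2A took 78.3% ± 2.7 in siCtrl and 65.1% ± 1.0 in siDDX17 of the KDM2 pair, since KDM2B rose more. HDAC1 took 78.1% ± 1.9 and 86.1% ± 1.2 of the HDAC1 and HDAC2 pair. The groups overlapped for SETDB1 with SETDB2 and for WHSC1 with WHSC1L1.

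**Figure D3:**
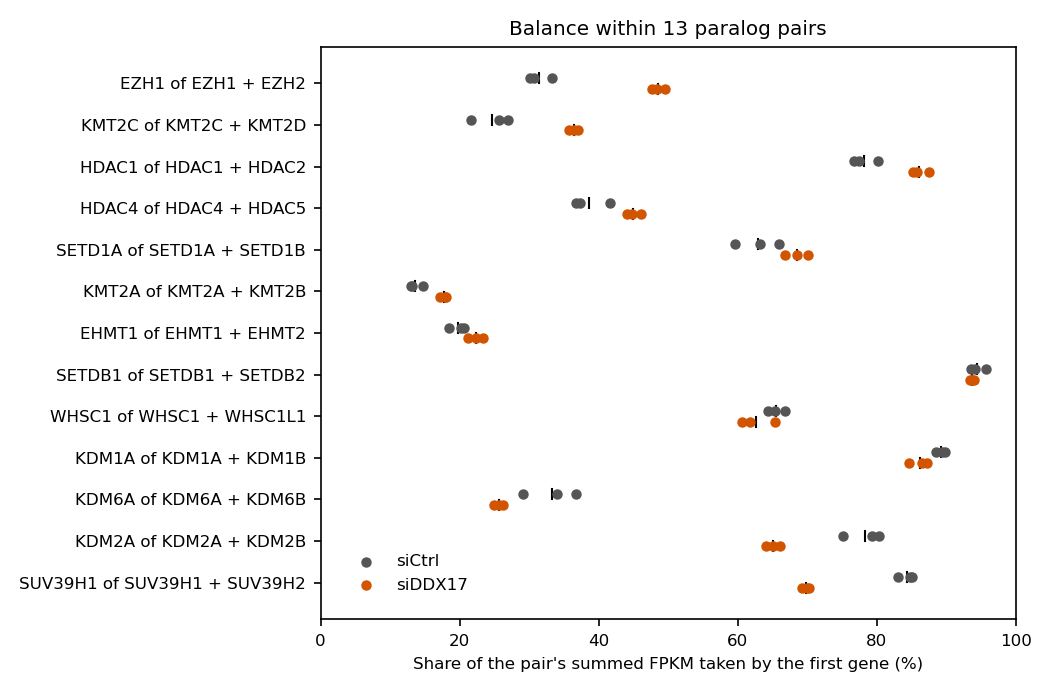
The share (x axis, percent) that the first gene named on the y axis took of the summed FPKM of its pair in each of 3 siCtrl (grey) and 3 siDDX17 (orange) libraries, with vertical marks at the means, for 13 paralog pairs. EZH1 moved from 31.3% to 48.6% of its pair and SUV39H1 from 84.3% to 69.8%.

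The median FPKM in siCtrl was 5.25 over the 20 enzymes that fell (0.213 to 27.4), 1.62 over the 14 that rose (0.467 to 20.1) and 1.92 over the 27 that did not pass, beside 2.79 over all 61 enzymes and 2.77 over all tested genes. The ranges overlapped widely, and over all tested genes the same medians were 6.93 for those that fell and 2.14 for those that rose. After KDM1A, the highest FPKM values in siCtrl were those of SIRT7 (22.0 ± 0.83), HDAC3 (21.6 ± 0.89), HDAC1 (20.1 ± 2.1) and SIRT6 (19.5 ± 0.79; SD, n = 3), whose neighbours in that order lay within their spread. In siDDX17, HDAC1 (40.9 ± 0.83) had the highest FPKM, above HDAC3 (26.0 ± 0.88), KDM1A (21.8 ± 1.2) and SIRT2 (20.2 ± 0.28). This order depends on the gene lengths used for FPKM.

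Most of these enzymes work in complexes, and 5 lists of partners and related enzymes were read beside them, with the same test and the same background of 24.5% higher and 24.3% lower. With library size alone the background was 33.5% higher and 16% lower. Of 10 PRC2 partners, 2 rose and 3 fell, with a median log2 fold change of -0.05. EED, the core subunit that reads trimethylated H3K27, had 27.4, 28.0 and 28.2 CPM in siCtrl and 20.0, 17.4 and 17.1 CPM in siDDX17 (log2 fold change -0.62, edgeR adjusted p = 2.14e-05). JARID2, an accessory subunit that recruits PRC2, had 6.47, 5.91 and 5.63 CPM in siCtrl and 10.6, 10.5 and 10.6 CPM in siDDX17 (0.82, edgeR adjusted p = 1.11e-05). The other falls, of RBBP7 (-0.25) and PHF19 (-0.26), were smaller than that of EED, and the other rise was that of LCOR (0.72). The core subunit SUZ12 had a log2 fold change of -0.13 and did not pass. The calls of this list with library size alone are not given here.

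Of 12 partners of the COMPASS complexes, in which the KMT2 and SETD1 enzymes work, 8 fell, 2 rose and 2 did not pass, with a median log2 fold change of -0.28. With library size alone, 5 were called lower and 2 higher, beside 16% and 33.5% of all tested genes. The largest fall was that of CXXC1, the CpG-binding subunit of the SETD1 complexes, which had 26.5, 27.4 and 25.5 CPM in siCtrl and 16, 17.1 and 17.5 CPM in siDDX17, a fall of 36.2%. WDR5 (-0.62) and ASH2L (-0.36), shared core subunits, fell, while the shared subunit RBBP5 rose (0.33). The largest rise was PAGR1 (0.60), for which 3 rows of the table carry the symbol and share exons, so its counts are uncertain, and it did not pass without siCtrl 3 (0.54, edgeR adjusted p = 0.0677) or siDDX17 1 (0.39, edgeR adjusted p = 0.148).

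Among 29 partners of the HDAC corepressor complexes, 4 rose, 9 fell and 16 did not pass, with a median log2 fold change of -0.02, while 9 were called higher and 5 lower with library size alone, beside 33.5% and 16% of all tested genes. In the NuRD complex, MTA1 had 41.2, 45.4 and 42.4 CPM in siCtrl and 94.0, 97.3 and 93.7 CPM in siDDX17, a 2.21-fold rise (edgeR adjusted p = 8.27e-09). Its paralog MTA2 went the other way, from a mean of 133 ± 3.1 to 66.1 ± 3.0 CPM (SD, n = 3; log2 fold change -1.01, edgeR adjusted p = 1.8e-08). SUDS3, a subunit of the Sin3 complex, showed the largest fall of the list, from 20.4, 21.3 and 18.9 CPM in siCtrl to 10.3, 7.60 and 8.20 CPM in siDDX17 (-1.21, edgeR adjusted p = 9e-07). For MTA1, MTA2 and SUDS3 the groups did not overlap.

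Of 10 histone acetyltransferases, which add the groups that the deacetylases remove, 4 fell (KAT5, KAT6B, KAT7 and EP300), 1 rose and 5 did not pass, with a median log2 fold change of -0.06, and with library size alone 2 were called in each direction, beside 33.5% higher and 16% lower of all tested genes. KAT7 (HBO1), which acetylates H3K14, fell from a mean of 55.5 ± 6.1 to 40.6 ± 0.67 CPM (SD, n = 3; log2 fold change -0.45, edgeR adjusted p = 0.000247). KAT2B (PCAF) rose by 30.7%, which did not pass without siCtrl 2 (edgeR adjusted p = 0.0807), siCtrl 3 (0.108), siDDX17 1 (0.12) or siDDX17 3 (0.0666). In the last list, of 20 other tested histone methylation enzymes, 5 rose and 5 fell, with a median log2 fold change of 0.00, and with library size alone 7 were called higher and 0 lower (edgeR's quasi-likelihood test), beside 33.5% and 16% of all tested genes. There the paralogs SUV420H1 (KMT5B; 0.62) and SUV420H2 (KMT5C; -0.37), which build on the mark made by SETD8, passed in opposite directions, although SUV420H2 did not pass with library size alone (-0.25, edgeR adjusted p = 0.0992), in limma on FPKM, or without siCtrl 2 (edgeR adjusted p = 0.0537), siDDX17 1 (0.0943) or siDDX17 3 (0.055).

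**Figure D4:**
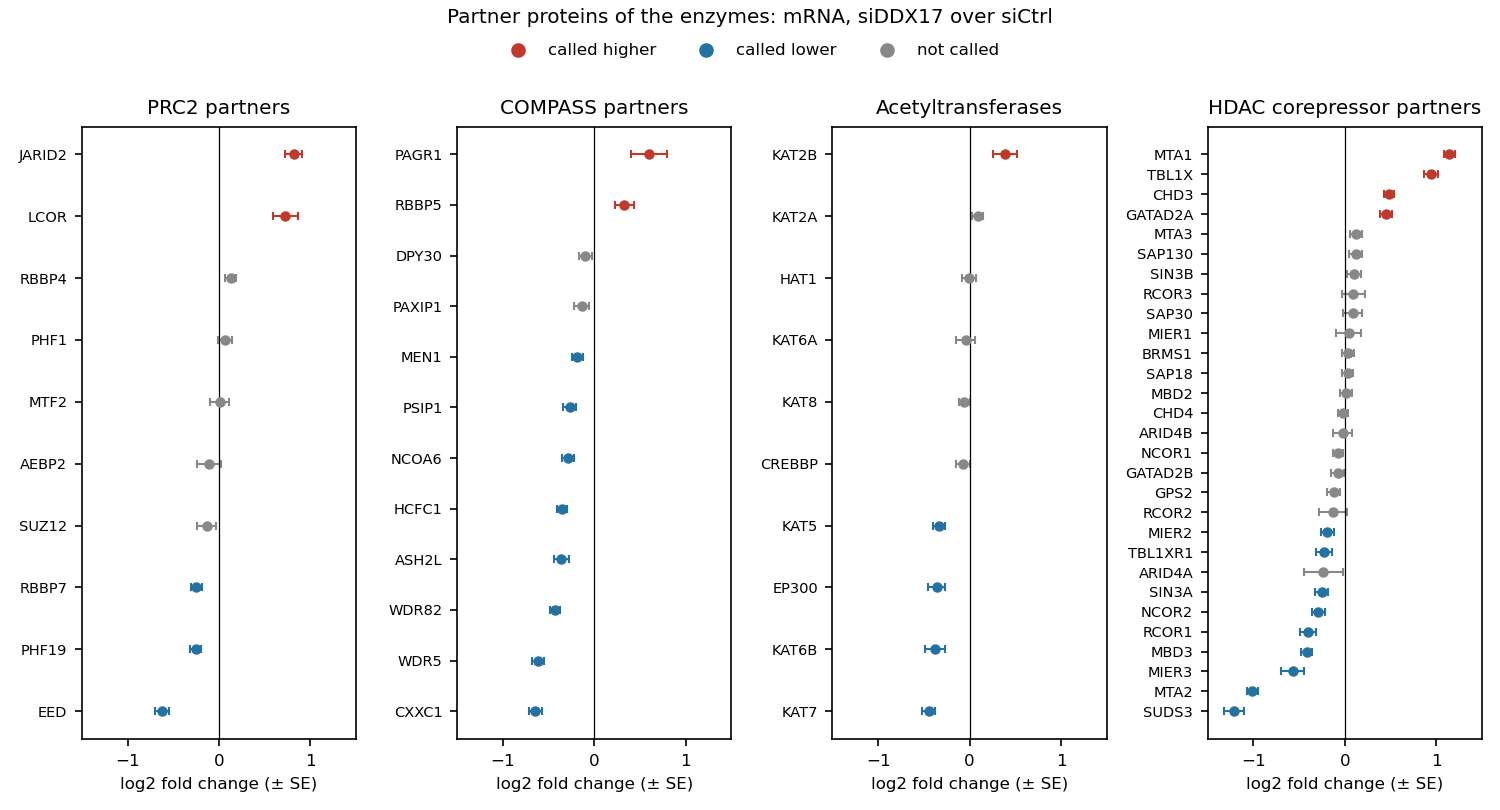
The log2 fold change (x axis, siDDX17 over siCtrl, bars show the SE) of the tested genes of 4 lists, with red for called higher, blue for called lower and grey for not called at an adjusted p under 0.05. In the COMPASS panel 8 of 12 genes are blue, and in the corepressor panel MTA1 (1.14) and MTA2 (-1.01) stand near opposite ends.

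Beside the falls of EZH2, SUV39H1 and SETD8, known for their levels in dividing cells, stand 8 genes of the cell cycle (MKI67, TOP2A, CCNB1, CDK1, PCNA, MCM2, MCM5 and E2F1) that were chosen after their values were seen, so that their direction is not a result. Their log2 fold changes ranged from -1.23 (CDK1) to -0.33 (PCNA), with 24.3% of all tested genes called lower. The 3 enzymes were picked from the 20 that fell, so that their shared direction is not a result either. Over all 61 enzymes, 14 rose and 20 fell in the same libraries, beside 24.5% and 24.3% of all tested genes. Those that rose included SUV39H2 (0.52), the paralog of SUV39H1, HDAC1 (0.90) and KDM2B (1.53). The part of the cell cycle genes in the falls of EZH2, SUV39H1 and SETD8 was not tested.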

How the data were processed

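RNA of A549 cells was measured in 3 siCtrl and 3 siDDX17 libraries (stranded mRNA kit, paired reads), grouped by the sample titles. Nothing in the labels says that the libraries came from separate cultures, and the study's text calls them biological replicates. The authors mapped the reads with TopHat2 to GRCh38, kept unique matches and deposited raw counts per gene. The authors also deposited FPKM values, normalized for gene length and library size. The counting program, the annotation and the use of strand are not given in the sources used here, so counts of genes with shared or antisense exons, or with near-identical copies, are uncertain. Reads that match more than 1 gene are lost when only unique matches are kept, which can lower the counts of near-identical paralogs.

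The counts of all 6 libraries were fitted in edgeR 4.0.16 (R 4.3.3) after filterByExpr and TMM scaling, by glmQLFit and glmQLFTest. The p-values of the 15615 genes in the fit were adjusted by the Benjamini-Hochberg method, and the limit for a call was 0.05. The SE was derived from the log2 fold change and the F statistic of the fit, and the intervals from that SE, so both are approximate. The common biological coefficient of variation was 0.0754. Depth was between 30658136 and 39182371 counts per library, and enzymes with few counts, such as KDM4D and HDAC9, have wide intervals. No row of the count table lacked a gene name, and 234 genes had counts but no FPKM. The script was tested on simulated data.

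The 61 enzymes and the lists of partners were chosen with earlier results of these data known. Named were the enzymes with a fold change over 1.5, the largest rise, the largest fall and the highest FPKM of each of 14 groups by substrate or class, pairs called in opposite directions, the extremes of each partner list and DDX17, with the others in the order of their groups. The 8 cell cycle genes were chosen after their values were seen. Alternatives were other scalings (RLE, upper quartile, library size alone), no filter or at least 10 counts in every library, DESeq2 1.42.0, limma 3.58.1 fitted to log2(FPKM + 1) or log2(FPKM + 0.1), a block for the replicate number, other thresholds, and the omission of each library. Locations are those of GENCODE release 44 (GRCh38), in which all 61 enzymes matched, and shared exonic bases over 10% are given beside the enzyme. Promoters are from RefSeq (GRCh38.p14). They were matched by Ensembl identifier or symbol for 56 of the 61 enzymes. For the tested coding genes they were matched by symbol or synonym, for 80.3%. Python 3.11.15, numpy 2.4.6, pandas 2.3.3 and matplotlib 3.10.9 were used.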

Additional observations from a re-analysis of the deposited data

How the results depend on the processing

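Over the 15 alternative fits, library size alone called 23 enzymes higher, against 14, while over all tested genes the share went from 24.5% to 33.5%. Fits of limma on log2(FPKM + 1) and on log2(FPKM + 0.1) each called 13 enzymes lower, against 20. Over all 15615 tested genes they called 2369 and 2374 lower, against 3798. A log2 fold change over 1 left 2 higher and 1 lower, and an unadjusted p under 0.01 with a fold change over 1.5, the limits given in the study's methods, left 4 and 7. The share of all tested genes under the limits of the study's methods is not given here. Leaving out 1 library gave between 12 and 17 enzymes higher and between 15 and 21 lower, and without siCtrl 1 there were 17 and 20. Over all genes in those fits, between 3189 and 4220 were called higher and between 3101 and 4312 lower. The median log2 fold change of the enzymes, 0.02, was 0.0518 with upper quartile scaling, 0.143 with library size alone, 0.0882 with log2(FPKM + 1) and 0.145 with log2(FPKM + 0.1), and between -0.0139 and 0.026 with 1 library left out. DESeq2 called 14 enzymes higher and 19 lower, beside 3418 and 3628 of all 15615 tested genes.

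The replicate numbers did not pair the libraries. Deviations of same-numbered libraries from their group means correlated at 0.007, 0.041 and -0.056 over genes. With the number as a block, 15 enzymes were called higher and 20 lower, beside 3743 and 3738 of all 15615 tested genes. Of 644 values of single named genes, 594 kept their direction and side of the threshold, 39 no longer passed, 5 newly passed and 6 changed sign, all 6 of genes that did not pass. The log2 fold change of WHSC1 turned to 0.0314 with library size alone, 0.0254 with log2(FPKM + 1) and 0.0328 with log2(FPKM + 0.1), and that of SETD3, 0.0176, lay between -0.0162 and 0.0526 with 1 library left out. Of 170 counts over the partner lists, 115 stayed within 1.5 times. Depth limits KDM4D, which drops out when every library must hold at least 10 counts, and HDAC9.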
